A study of Jatropha curcas with 22 samples.

Results

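Jcr4S01692.40 and Jcr4S07634.50 are a pair of genes of abscisic acid signalling in Jatropha curcas, an oilseed shrub that tolerates drought. They were taken by their gene identifiers, 2 of 57437 gene models with read counts, and were chosen with earlier results of these data known. The authors' descriptions name Jcr4S01692.40 as a PYL4-like abscisic acid receptor, called the receptor gene here. They name Jcr4S07634.50 as highly ABA-induced PP2C gene 2, isoform 1, called the phosphatase gene here.

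Abscisic acid (ABA) is the hormone that plants accumulate when water is short. Receptors of the PYR/PYL/RCAR family bind ABA and then hold protein phosphatases 2C (PP2C) of clade A, to which the highly ABA-induced PP2Cs of Arabidopsis belong. When ABA is scarce these phosphatases keep SnRK2 kinases off. The kinases otherwise activate transcription factors of ABA-responsive genes and the anion channels that close stomata. Receptor and phosphatase therefore act on opposite sides of the same switch, and in Arabidopsis the phosphatase genes are themselves ABA-responsive.

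The plants came from a Cape Verde islands strain, and 22 RNA-seq libraries of their young leaves and root tips form 11 groups of 2. All plants were potted greenhouse seedlings, 36 days old when the treatment began. In each organ the groups were a watered control at day 13, moderate drought (13 days without water), severe drought (49 days without water), rewatered plants labelled day 52, and a watered control with a joint label of days 49 and 52. Leaf also had a watered group at day 0. Plants were pooled, 6 for days 0 and 49 and 3 for days 13 and 52, and no label gives the number behind the joint control. The labels are in conflict on the length of rewatering, since the protocol gives 7 days and the day numbers give 3. The sample titles number the libraries of a group br1 and br2 without spelling this out, and the protocols do not say whether they came from separate pools of plants, so the spread that p-values rest on, that between the libraries of a group, may be technical.

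Library totals ran from 37104762 to 82215677 reads, and libraries of a group differed by more than counting error in all 11 groups. Summed levels of 30 leaf marker genes (photosystem, chlorophyll-binding and Rubisco small subunit proteins) ran from 4624 to 9520 CPM (reads of a gene scaled to a common library total) in leaf and from 53.8 to 122 CPM in root. A list of 9 root marker genes separated the organs weakly, at 254 to 338 CPM in leaf and 308 to 483 CPM in root. In it the root hair defective 3 homologues were present in both organs, whereas the Casparian strip protein gene Jcr4S00324.50, a marker of the root endodermis, was at 0 to 0.0926 CPM in every leaf library. The guard cell channel gene SLAC1 (Jcr4S02590.50) had 0 to 11 reads per library, and 26 embryo or seed genes summed to 78.0 to 217 CPM in leaf and 38.2 to 125 CPM in root. The day 49/52 root controls had reads on 40952 and 38267 gene models, against 31702 to 36477 in the other root libraries.

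Levels below are CPM with TMM scaling over all 22 libraries, as mean ± SD with n = 2 libraries per group. Whether libraries of groups overlapped is a description of 2 against 2, and the share of all genes without overlap is not given. Changes are log2 fold changes with their SE from edgeR's quasi-likelihood test, and a gene was called at a Benjamini-Hochberg adjusted p under 0.05 over all genes tested. Each gene was tested in 21 comparisons, of which 12 were called for the receptor gene and 9 for the phosphatase gene.

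The receptor gene was mainly a root gene in watered plants, and its level in root fell with drought. In root it had 78.8 and 117 CPM in the day 13 control and 44.7 and 45.2 CPM in the day 49/52 control. Under moderate drought the root libraries had 16.7 and 24.2 CPM, under severe drought 6.03 and 5.90 CPM, and after rewatering 83.9 and 97.4 CPM. Both droughted groups lay below both root controls, with no overlap, and the rewatered libraries lay within the range of the day 13 control.

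In leaf the receptor gene stayed within a narrow range. It had 17.2 and 13.5 CPM at day 0, 16.9 and 9.24 CPM in the day 13 control, and 19.5 and 17.4 CPM in the day 49/52 control. Moderate drought gave 6.15 and 8.33 CPM, severe drought 10.8 and 13.8 CPM, and rewatering 15.5 and 17.8 CPM. The moderate libraries were the lowest of the leaf and did not overlap with any other leaf group. The highest group mean was 2.55 times the lowest in leaf and 16.4 times in root.

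**Figure D1:**
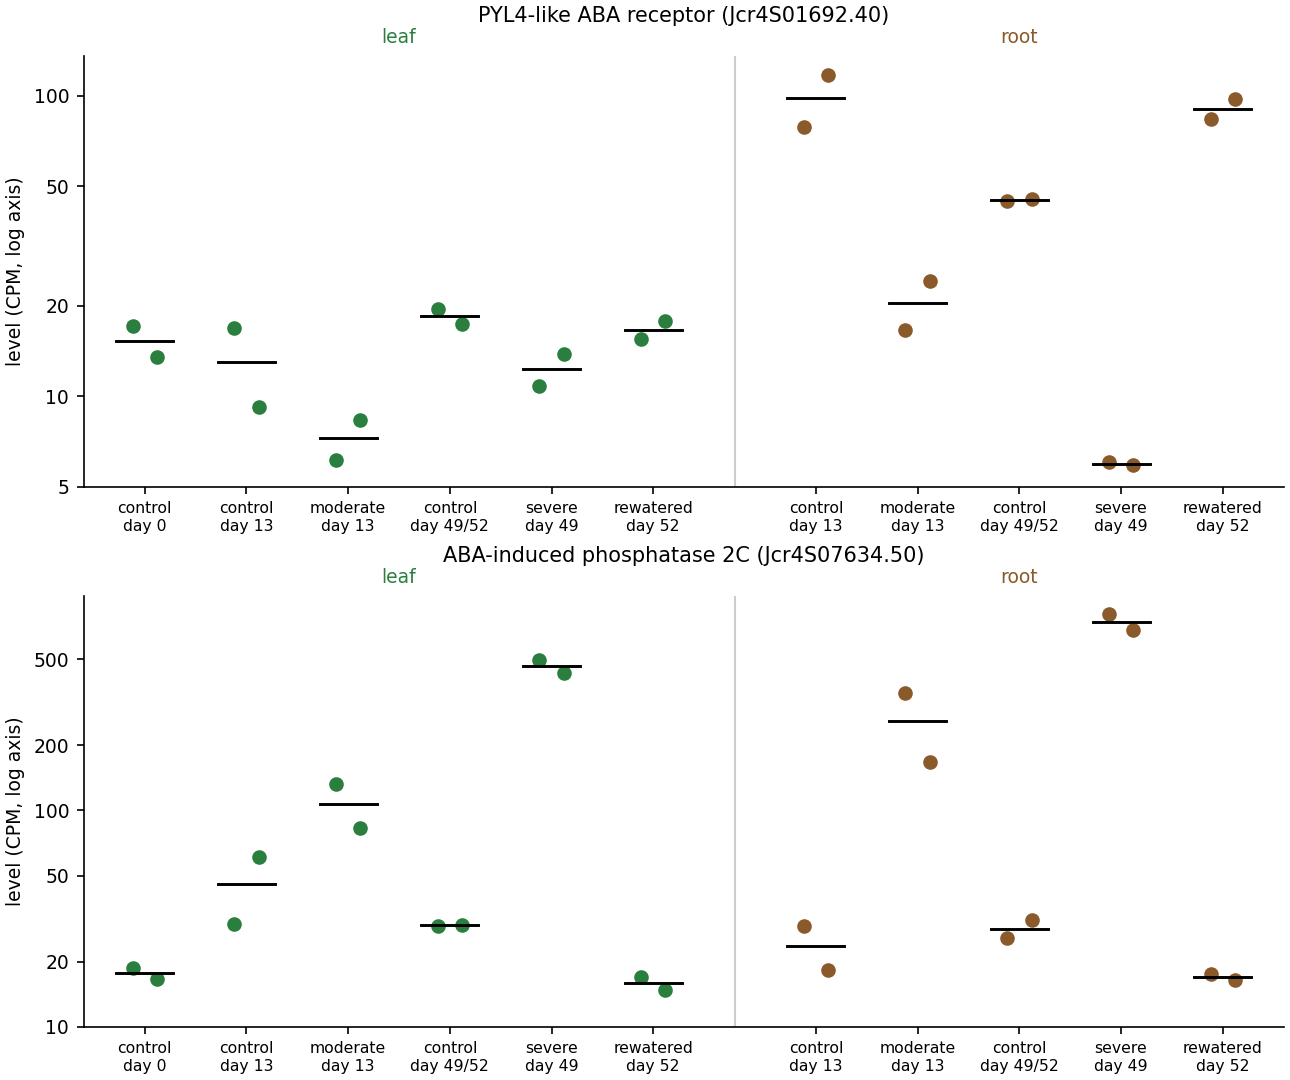
Levels of the receptor gene (upper panel) and the phosphatase gene (lower panel) in CPM on a log axis, by group, leaf in green and root in brown. Each point is a library and each bar the mean of 2. In root, severe drought held the lowest receptor level (5.96 CPM) and the highest phosphatase level (745 CPM).

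Ordered by mean, the receptor gene ran from root day 13 control (98.1 ± 27.2 CPM) and root rewatered (90.7 ± 9.54 CPM) to root day 49/52 control (44.9 ± 0.396 CPM) and root moderate drought (20.4 ± 5.32 CPM). The leaf groups followed: day 49/52 control (18.5 ± 1.51 CPM), rewatered (16.7 ± 1.65 CPM), day 0 (15.3 ± 2.58 CPM), day 13 control (13.1 ± 5.40 CPM), severe drought (12.3 ± 2.11 CPM) and moderate drought (7.24 ± 1.54 CPM). Root severe drought came last at 5.96 ± 0.0903 CPM. Libraries overlapped between neighbours in 6 of the 10 steps of this order, among them every step from root moderate drought down to leaf severe drought. The steps from root rewatered to root day 49/52 control, from there to root moderate drought, and the last 2 steps had no overlap.

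The phosphatase gene ran the other way to the receptor gene's fall in root, and it did so in both organs. In leaf it had 18.7 and 16.7 CPM at day 0, 29.9 and 61.0 CPM in the day 13 control, and 29.1 and 29.7 CPM in the day 49/52 control. Moderate drought gave 132 and 82.7 CPM, severe drought 496 and 433 CPM, and rewatering 17.01 and 14.86 CPM. The severe libraries stood above every other leaf library and the rewatered ones overlapped with day 0 at the bottom.

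In root the phosphatase gene had 29.2 and 18.2 CPM in the day 13 control and 25.8 and 31.0 CPM in the day 49/52 control. Moderate drought brought it to 349 and 167 CPM, severe drought to 805 and 685 CPM, and rewatering to 17.6 and 16.4 CPM. The droughted root groups overlapped neither with each other nor with any watered group.

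The order of phosphatase means was root severe drought (745 ± 84.8 CPM), leaf severe drought (465 ± 43.9 CPM), root moderate drought (258 ± 129 CPM) and leaf moderate drought (108 ± 35.2 CPM), none of which overlapped with its neighbour. Leaf day 13 control (45.46 ± 21.95 CPM) came next, without overlap with leaf moderate drought or leaf day 49/52 control. The remaining 6 groups lay between 29.4 ± 0.389 CPM in leaf day 49/52 control and 15.9 ± 1.52 CPM in rewatered leaf, and all 5 steps among them overlapped. The highest mean was 46.8 times the lowest. On the deposited RPKM scale, which corrects for gene length and was made nearly equal in distribution between libraries, the phosphatase gene was at 386 ± 6.01 RPKM in severely droughted root, rank 255 of all 57437 gene models, and at 292 ± 14.8 RPKM in severely droughted leaf, rank 356. The receptor gene on that scale was at 93.2 ± 12.4 RPKM in the day 13 root control (rank 1349) and at 8.10 ± 0.283 RPKM in severely droughted root (rank 13089).

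The first comparison asked what moderate drought does within each organ. In root the receptor gene fell by 2.30 on the log2 scale, a 4.94-fold lower level (SE 0.25, edgeR adjusted p = 0.0187). The phosphatase gene rose 10.7-fold in root (log2 3.42, SE 0.38, edgeR adjusted p = 0.0187). Of 24924 root genes tested, 2.74% were called, 0.754% lower and 1.98% higher. The phosphatase gene ranked 353 among them by the size of its rise.

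Both root calls under moderate drought rested on single libraries. Without replicate 2 of the day 13 root control the receptor gene was at -1.98 (adjusted p = 0.0836) and the phosphatase gene at 3.12 (adjusted p = 0.108). Without replicate 1 of the moderate root libraries the receptor gene was at -2.06 (adjusted p = 0.0895). With only the 4 libraries of this comparison in the fit the changes were -2.31 and 3.41, with adjusted p of 0.0826 and 0.0802.

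In leaf neither gene was called under moderate drought, where 0.00431% of 23200 genes were. The receptor gene was at -0.81 (SE 0.28, 95% interval -1.44 to -0.19, edgeR adjusted p = 0.449) and the phosphatase gene at 1.27 (SE 0.29, 95% interval 0.63 to 1.92, edgeR adjusted p = 0.228). For both genes the 2 moderate libraries did not overlap with the 2 controls. An exact two-sided permutation test of 2 against 2 libraries cannot give a p below 0.333, so this alone does not show a change. In this comparison 8.65% of leaf genes had an unadjusted p under 0.05. The phosphatase change was called by DESeq2 (1.25, adjusted p = 0.00664), without a filter on low counts (1.29, adjusted p = 3.17e-09) and on leaving out the second day 13 control library of leaf (1.87, adjusted p = 0.0299). The receptor change was called without the filter (-0.81, adjusted p = 0.0203).

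Replicate 2 of the day 13 leaf control had 61.0 CPM of the phosphatase gene against 29.9 CPM in replicate 1, and 9.24 CPM of the receptor gene against 16.9 CPM. Its gap to replicate 1 was 1.04 on the log2 scale for the phosphatase gene, larger than the same gap in all but 9.05% of 25939 genes, and -0.85 for the receptor gene (11.7% of genes had a larger gap). That library was thus shifted towards the droughted libraries for both genes. Similarly, the moderate root libraries differed by 1.07 on the log2 scale for the phosphatase gene, with 8.91% of genes showing a larger gap. In 8 of the 11 groups the library with more phosphatase reads, after scaling, had less of the receptor. No such count is given for other pairs of genes, so no link between these genes can be read from it.

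Severe drought raised the phosphatase gene in both organs and lowered the receptor gene in root. The phosphatase gene rose 15.7-fold in leaf (log2 3.97, SE 0.32, edgeR adjusted p = 4.04e-06) and 26.1-fold in root (log2 4.71, SE 0.40, edgeR adjusted p = 0.000179). It ranked 351 among leaf genes and 161 among root genes by the size of the rise. These were broad responses: 57.1% of leaf genes and 45.1% of root genes were called, 27.6% and 19.5% higher. The receptor gene fell by 2.92 on the log2 scale in root, 7.57-fold (SE 0.26, edgeR adjusted p = 0.000202), where 25.6% of genes were called lower.

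In leaf the receptor gene was at -0.59 under severe drought (SE 0.28, 95% interval -1.20 to 0.02, edgeR adjusted p = 0.0913) and was not called, whereas 29.5% of leaf genes were called lower. Without a filter on low counts it was called at -0.61 (adjusted p = 0.0183). The control mattered here: against the day 13 control the leaf change was -0.06 (adjusted p = 0.876). In root, the receptor change was larger against the day 13 control, at -4.04 (adjusted p = 5.49e-05), and the phosphatase change was 4.98 (adjusted p = 9.37e-05). In leaf the phosphatase change against that control was 3.38 (adjusted p = 1.14e-05).

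Casparian strip protein genes moved with part of the receptor pattern in root. Jcr4S00324.50 had 28.9 and 41.4 CPM in the day 13 control, 4.993 and 1.498 CPM in the day 49/52 control, 0.0988 and 0.0476 CPM under severe drought, and 31.4 and 54.5 CPM after rewatering. A second such gene, Jcr4S03748.80, had 0.247 and 0.476 CPM under severe drought and 32.7 to 46.0 CPM after rewatering. The whole root marker list summed to 321 to 340 CPM under severe drought and 308 to 309 CPM in its control. In bulk RNA, fewer cells of a type and less RNA per cell cannot be told apart, and the part of these genes in the receptor result under severe drought was not tested. Under moderate drought, where the receptor gene was 4.94-fold lower, Jcr4S00324.50 had 29.0 and 44.6 CPM and Jcr4S03748.80 22.1 and 33.1 CPM, beside 29.7 and 39.1 CPM of the latter in the control.

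The test of severe against moderate drought asked whether the later effect was larger, each against its own control. For the phosphatase gene in leaf it was larger by 2.70 on the log2 scale (SE 0.41, edgeR adjusted p = 0.000733), in a comparison that called 35.6% of leaf genes. In root the difference was 1.29 (SE 0.49, edgeR adjusted p = 0.0822), where 30.3% of genes were called. Against the day 13 control for both it was 1.57 (adjusted p = 0.00806), and it was called without replicate 1 of the moderate root libraries (1.91, adjusted p = 0.017). The receptor gene differed by -0.62 in root (SE 0.34, edgeR adjusted p = 0.206) and by 0.22 in leaf (SE 0.39, edgeR adjusted p = 0.682). With the day 13 control for both these differences were -1.74 (adjusted p = 0.00111) and 0.76 (adjusted p = 0.0468). Using that control for both drought levels, as also done for the phosphatase gene, makes the control cancel. Such values set severe directly against moderate drought libraries, so the sampling day and plant age differ too.

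After rewatering the receptor gene lay within the range of the watered libraries of each organ. The phosphatase gene lay below every watered root library (17.6 and 16.4 CPM against 18.2 CPM at the lowest), and in leaf its lower library, at 14.86 CPM, lay below every watered one (16.7 CPM at the lowest). The phosphatase gene was 28.8-fold lower in rewatered than in severely droughted leaf (log2 -4.85, SE 0.34, edgeR adjusted p = 1.27e-06). It was 44.4-fold lower in root (log2 -5.47, SE 0.42, edgeR adjusted p = 8.82e-05), the rank 158 drop of all root genes. These comparisons called 59.3% of leaf genes (30.2% lower) and 49.4% of root genes (22% lower). The receptor gene was 15.01-fold higher in rewatered than in severely droughted root (log2 3.91, SE 0.27, edgeR adjusted p = 7.05e-05), where 27.4% of genes were called higher. In leaf its difference was 0.45 (SE 0.28, edgeR adjusted p = 0.182), while 29.1% of leaf genes were called higher.

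Rewatered plants were also set against the day 49/52 control, which is the control of severe drought too, so these comparisons share libraries. The receptor gene in root was 1.98-fold above that control (log2 0.99, SE 0.24, edgeR adjusted p = 0.0325), where 17% of root genes were called and 8.53% were higher. That call was lost on leaving out any of the 4 libraries: adjusted p was 0.133 and 0.172 without replicate 1 or 2 of the control, and 0.057 and 0.141 without replicate 1 or 2 of the rewatered root. Against the day 13 control the difference was -0.13 (adjusted p = 0.782). The phosphatase gene lay below the day 49/52 control in both organs without a call, at -0.87 in leaf (SE 0.29, edgeR adjusted p = 0.107) and -0.77 in root (SE 0.35, edgeR adjusted p = 0.168), where 4.56% of leaf genes were called in either direction and 3.79% lower, and 8.44% of root genes lower. In leaf it was called against the day 13 control (-1.47, adjusted p = 0.0168) and by DESeq2 (-0.85, adjusted p = 0.0434). The receptor gene in rewatered leaf was at -0.14 (SE 0.28, edgeR adjusted p = 0.783).

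**Figure D2:**
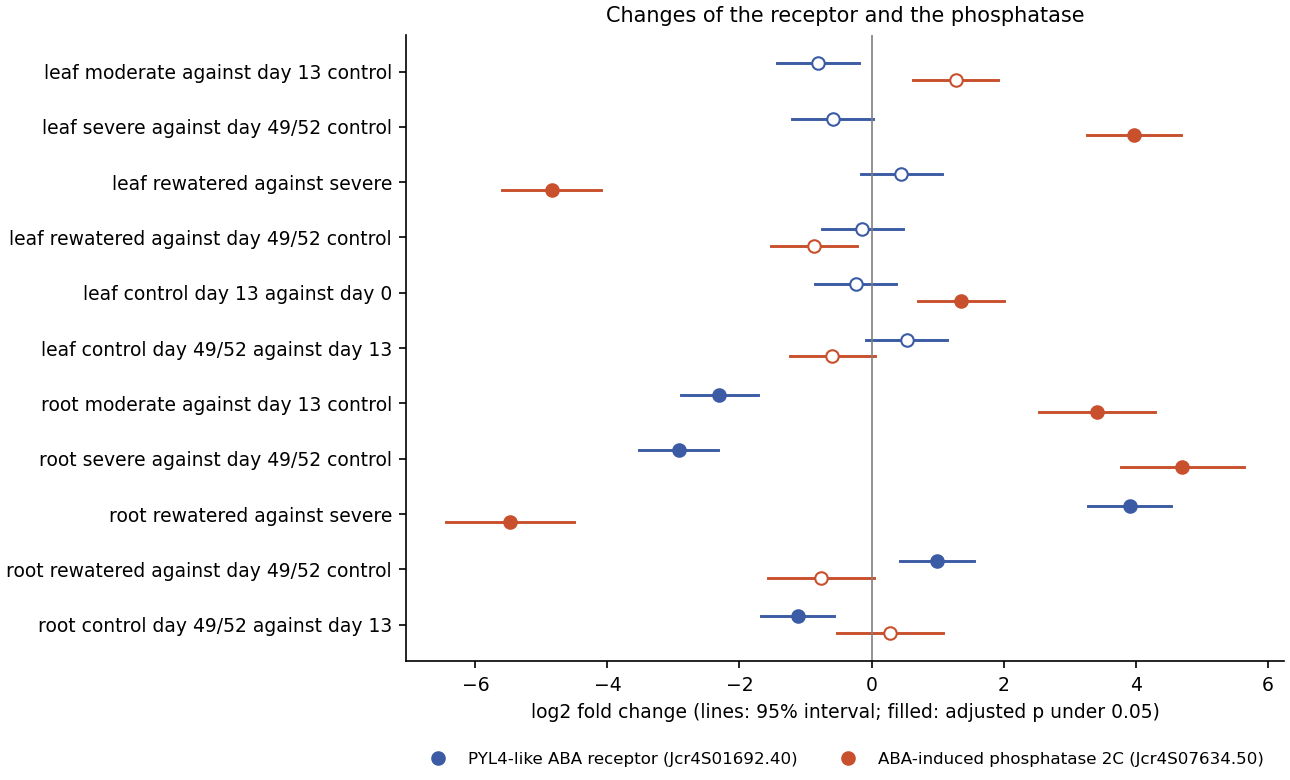
Log2 fold changes of the receptor gene (blue) and the phosphatase gene (orange) in 11 comparisons within an organ, with 95% intervals as lines and filled points for calls. The changes of the pair have opposite signs in all comparisons but rewatered leaf against its day 49/52 control (-0.14 and -0.87). Both genes were called only in root, under moderate and severe drought and in rewatered against severe. The comparisons share groups, and the signs are not given for other pairs of genes, so no link can be read from them.

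Within an organ, watered groups were called different for each gene, but these calls depended on single libraries. The receptor gene fell by 1.12 on the log2 scale between the day 13 and day 49/52 root controls, 2.17-fold (SE 0.24, edgeR adjusted p = 0.0135), where 30.9% of root genes were called and 15.3% were lower. The call was lost without replicate 1 (-1.12, adjusted p = 0.071) or replicate 2 (-1.12, adjusted p = 0.0844) of the later control. The phosphatase gene in root differed by 0.28 (SE 0.35, edgeR adjusted p = 0.568) between these controls, with 15.6% of genes called higher.

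In leaf the phosphatase gene was 2.55-fold higher in the day 13 control than at day 0 (log2 1.35, SE 0.30, edgeR adjusted p = 0.049), where 1.83% of leaf genes were called and 1.31% were higher. Without replicate 2 of the day 13 control it was 0.75 (adjusted p = 0.257), and without replicate 1 or 2 of day 0 the adjusted p was 0.323 or 0.226. With a replicate block it was 1.35 (adjusted p = 0.074). From the day 13 to the day 49/52 leaf control it was at -0.60 (SE 0.29, edgeR adjusted p = 0.3), where 0.513% of genes were called and 0.263% were lower. The receptor gene in leaf was at -0.24 (SE 0.28, edgeR adjusted p = 0.694) in the first of these comparisons and at 0.53 (SE 0.28, edgeR adjusted p = 0.331) in the second.

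The organs were compared within each condition, in a fit of all 22 libraries. The receptor gene was lower in leaf than in root in the day 13 control (7.69-fold, log2 -2.94, SE 0.29, edgeR adjusted p = 5.02e-07). It was also lower in leaf under moderate drought (log2 -1.46, edgeR adjusted p = 0.000341), in the day 49/52 control (log2 -1.29, edgeR adjusted p = 0.00081) and after rewatering (log2 -2.41, edgeR adjusted p = 2.88e-06). Under severe drought the order was turned, and leaf was 2.03-fold above root (log2 1.02, SE 0.28, edgeR adjusted p = 0.00832). That last call was lost without replicate 2 of the severe leaf libraries (0.84, adjusted p = 0.0717). Of 25939 genes, the share called was 58.7% in the day 13 control (29.7% lower in leaf), 57.2% under moderate drought (29.4% lower) and 63% in the day 49/52 control (31.7% lower). It was 63.2% after rewatering (32.9% lower) and 41.7% under severe drought (19.3% higher in leaf).

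The phosphatase gene differed less between organs. In the rewatered plants and the day 49/52 controls leaf minus root was -0.052 (95% interval -0.80 to 0.69, edgeR adjusted p = 0.908) and 0.046 (95% interval -0.70 to 0.79, edgeR adjusted p = 0.916), where 32.9% of genes were called lower in the first and 31.2% higher in the second. Under severe drought it was -0.71 (SE 0.35, edgeR adjusted p = 0.115). In the day 13 control leaf was 1.89-fold above root (log2 0.92, SE 0.35, edgeR adjusted p = 0.0344), where 29% of genes were called higher. That call was lost without replicate 2 of either day 13 control, at 0.31 (adjusted p = 0.509) for leaf and 0.60 (adjusted p = 0.268) for root. Under moderate drought leaf was 2.35-fold below root (log2 -1.23, SE 0.35, edgeR adjusted p = 0.0071). This was lost without replicate 1 of the moderate root libraries (-0.59, adjusted p = 0.188) or replicate 2 of the moderate leaf libraries (-0.93, adjusted p = 0.0896).

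Whether a drought effect differed between organs was tested as the difference of the effects. For the receptor gene the severe effect differed by 2.31 (leaf minus root, SE 0.39, edgeR adjusted p = 0.000365) and the change on rewatering by -3.42 (SE 0.40, edgeR adjusted p = 1.13e-05), in comparisons that called 35.7% and 38.1% of genes. Its moderate effect differed by 1.48 (SE 0.39, edgeR adjusted p = 0.088), where 0.875% of genes were called. DESeq2 called this one (adjusted p = 0.0128).

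For the phosphatase gene the severe effect differed between organs by -0.76 (95% interval -1.80 to 0.29, edgeR adjusted p = 0.25) and the change on rewatering by 0.66 (95% interval -0.39 to 1.71, edgeR adjusted p = 0.32). Against the day 13 controls the severe effect was smaller in leaf by 1.63 on the log2 scale (log2 -1.63, adjusted p = 0.0198). The moderate effect differed by -2.15 (SE 0.49, edgeR adjusted p = 0.0574), and DESeq2 called it (adjusted p = 0.00157). It was also called without replicate 1 of the day 13 leaf control (-2.58, adjusted p = 0.0305), replicate 1 of the day 13 root control (-2.49, adjusted p = 0.0271) or replicate 2 of the moderate root libraries (-2.59, adjusted p = 0.00893). The receptor gene's moderate effect was called without the same libraries, at 1.97 (adjusted p = 0.0366), 1.77 (adjusted p = 0.0233) and 1.77 (adjusted p = 0.0399).

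The ratio of phosphatase to receptor reads within a library does not depend on how libraries are scaled. In leaf it was 1.09 and 1.23 at day 0, 1.77 and 6.60 in the day 13 control, and 1.49 and 1.70 in the day 49/52 control. It was 21.5 and 9.92 under moderate drought, 45.7 and 31.4 under severe drought, and 1.10 and 0.833 after rewatering. In leaf every droughted library thus lay above every watered one, the nearest being replicate 2 of the day 13 control.

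In root the ratio was 0.371 and 0.155 in the day 13 control and 0.577 and 0.686 in the day 49/52 control, so receptor reads outnumbered phosphatase reads there. It was 20.96 and 6.915 under moderate drought and 134 and 116 under severe drought, and after rewatering it was 0.209 and 0.168. Between the highest and the lowest library the ratio spanned 9.75 on the log2 scale, or 860-fold. With 2 libraries against 2, an exact two-sided permutation test of the ratio cannot give a p below 0.333, so the ratio is given as values only. The deposited RPKM values correct for gene length, but their distributions were also made nearly equal between libraries, so their ratio is not the read ratio divided by a constant. On that scale it was 47.1 and 48.4 in severely droughted root and 23.3 and 17.2 in severely droughted leaf.

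**Figure D3:**
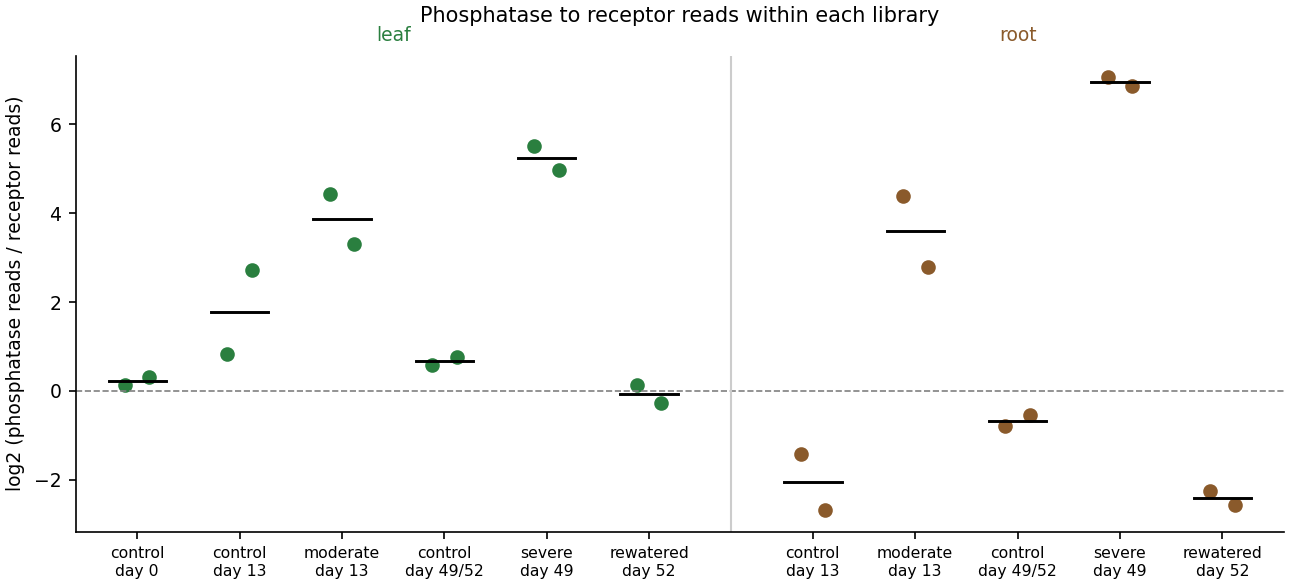
Log2 ratio of phosphatase to receptor reads in each library (points) with the mean of each group (bars), leaf in green and root in brown. Moderate and severe drought lie above 0 in both organs, but so does watered leaf. Rewatered leaf lies on both sides of 0, whereas watered and rewatered root lies below 0. The read ratio is not corrected for gene length.

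The other genes of the pathway were taken from 8 lists, written as patterns on the authors' gene descriptions and holding 59 genes. Outside the receptor, kinase and transcription factor lists, genes given with a change below had the smallest p under severe drought in an organ. They do not stand for their whole lists. The receptor list held 1 further gene, Jcr4S00096.170 (regulatory components of ABA receptor 3). It had 36.8 ± 1.14 CPM in the day 49/52 leaf control and 37.2 ± 0.107 CPM in severely droughted leaf (log2 0.00). In root it had 54.4 ± 1.19 and 64.4 ± 0.465 CPM (log2 0.24, edgeR adjusted p = 0.441), and it was at -0.80 under moderate drought (edgeR adjusted p = 0.108). It was not called in any comparison within an organ.

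The PP2C list caught 29 genes by their descriptions, without regard to clade, and genes described in other words are not in it. Of these 29, 26 could be tested within the organs. Under severe drought 9 were called higher and 7 lower in leaf, with a median log2 change of 0.14 against 0.03 over all genes, and 5 higher and 6 lower in root (median 0.07 against -0.04). The shares of all genes called were 27.6% higher and 29.5% lower in leaf and 19.5% and 25.6% in root, so the PP2C counts were near the background. Under moderate drought the phosphatase gene described here was the one call of this list in root, and none of the list was called in leaf. Jcr4S00721.100, a PP2C family gene, fell under severe drought by 1.41 on the log2 scale in leaf (edgeR adjusted p = 1.05e-05) and by 1.71 in root (edgeR adjusted p = 0.000165). Another, Jcr4S02732.50, fell by 1.90 in leaf (edgeR adjusted p = 4.76e-06) and was at 0.15 in root (edgeR adjusted p = 0.829). A gene with the same name as the phosphatase gene but marked isoform 2, Jcr4S02668.40, had 15 reads in all 22 libraries, and the labels do not say how reads matching more than 1 gene were counted.

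Of the 4 SnRK2 kinase genes, 2 had enough reads to be tested, and neither was called under severe drought. The SAPK2-like gene Jcr4S01664.20 was at 0.69 in leaf there (edgeR adjusted p = 0.095), and was called without replicate 2 of the day 49/52 leaf control (1.21, adjusted p = 0.0161). In root that gene had 0.934 ± 0.149 CPM in the day 13 root control and 3.19 ± 1.23 CPM under moderate drought (log2 1.73, edgeR adjusted p = 0.045). That call was lost without replicate 2 of the control (1.59, adjusted p = 0.178), without replicate 1 of the moderate libraries (1.27, adjusted p = 0.26) and with a replicate block (1.73, adjusted p = 0.0595). From severe drought to rewatering it fell by 2.26 on the log2 scale in leaf (edgeR adjusted p = 0.00027) and rose by 1.37 in root (edgeR adjusted p = 0.0118). The root call was lost without replicate 1 (1.30, adjusted p = 0.0704) or 2 (1.36, adjusted p = 0.0649) of the severe libraries and without replicate 2 of the rewatered ones (1.06, adjusted p = 0.0786). Jcr4S11084.10, also SAPK2-like, was at 1.11 in leaf (edgeR adjusted p = 0.0896) and 0.59 in root (edgeR adjusted p = 0.179) under severe drought. The other kinase genes, Jcr4S21911.10 and Jcr4U29432.20, had 10 and 42 reads in all. The list of transcription factors that answer ABA caught 2 genes by their descriptions, and factors described in other words are not in it. The ABI5 family gene Jcr4S00381.110 had 0 reads and ABI3 (Jcr4S00529.110) had 63, and the latter was not called in root.

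Of 6 genes described as ABA-induced or ABA-responsive, 5 were tested. Under severe drought 4 were called higher and 1 lower in leaf (median 0.85 against 0.03 over all genes), and 3 higher and 1 lower in root (median 2.48 against -0.04). Of all genes, 27.6% in leaf and 19.5% in root were called higher, and 29.5% and 25.6% lower. The phosphatase gene is among these counts. Jcr4S01111.70, an abscisic stress-ripening protein gene, rose by 1.00 on the log2 scale in leaf (edgeR adjusted p = 0.00325), from 20.1 ± 2.58 to 40.4 ± 6.35 CPM. In root it rose from 0.147 ± 0.0771 to 4.71 ± 0.834 CPM (edgeR adjusted p = 0.000647). The HVA22 family gene Jcr4S00357.20 fell in both, by 0.88 in leaf (edgeR adjusted p = 0.000192) and by 1.29 in root (edgeR adjusted p = 0.000971).

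The list of S-type anion channel genes held SLAC1, the guard cell channel that SnRK2 kinases act on, and genes described as SLAH1-like. Of 4, 2 were tested in leaf and 3 in root, and under severe drought 1 was called lower in leaf (median -1.46 against 0.03 over all genes) and 2 in root (median -2.35 against -0.04). Of all genes, 29.5% in leaf and 25.6% in root were called lower. Jcr4S00377.60, SLAH1-like and at no more than 0.278 CPM in any leaf library, fell by 2.35 on the log2 scale in root (edgeR adjusted p = 0.00288), from 9.65 ± 0.515 to 1.90 ± 1.04 CPM. Jcr4S02382.30, also SLAH1-like, fell by 3.22 in root (edgeR adjusted p = 0.0177), a call lost without replicate 1 of the control (-2.92) and without replicate 1 (-3.20) or 2 (-3.19) of the severe libraries. Jcr4S04079.50, SLAH1-like too, fell by 1.74 in leaf (edgeR adjusted p = 0.00166), from 0.992 ± 0.264 to 0.298 ± 0.000506 CPM. The leaf median rests on this gene and Jcr4S02382.30, which had 0.601 ± 0.281 and 0.271 ± 0.233 CPM there, so both were at low levels.

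The ABA synthesis list held genes described by zeaxanthin, zeaxanthin epoxidase, aldehyde oxidase or molybdenum cofactor sulfurase. It held no 9-cis-epoxycarotenoid dioxygenase gene, so it covers part of the pathway. Its genes were mostly called higher in leaf under severe drought. Of 9 genes, 8 were tested, with 6 called higher and none lower in leaf (median 1.62 against 0.03 over all genes), and 1 higher and 4 lower in root (median -0.81 against -0.04). Over all genes 27.6% were called higher and 29.5% lower in leaf, and 19.5% and 25.6% in root. In the test of the difference between organs, leaf minus root, 7 of the 8 were called higher and none lower (median 1.32 against -0.015), where 17.1% of all genes were called higher and 18.6% lower. Jcr4S00215.20, described as "zeaxanthin chloroplastic-like", was the one that rose in both: from 2.00 ± 0.386 to 46.4 ± 9.13 CPM in leaf (log2 4.53, edgeR adjusted p = 1e-07) and from 6.65 ± 0.107 to 58.1 ± 0.577 CPM in root (log2 3.12, edgeR adjusted p = 5.72e-05). Jcr4S05113.30, an aldehyde oxidase family gene (an aldehyde oxidase carries out the last step of ABA synthesis in Arabidopsis), rose by 1.70 in leaf (edgeR adjusted p = 2.86e-05) and was at -0.34 in root (edgeR adjusted p = 0.317). Jcr4S05819.20, a zeaxanthin epoxidase family gene, was at 0.41 in leaf (edgeR adjusted p = 0.0273). That direction turned to -0.32 against the day 13 control (adjusted p = 0.0804), and the call was lost without either severe leaf library (0.40, adjusted p = 0.0711, and 0.41, adjusted p = 0.0679) or without replicate 1 of the control (0.34, adjusted p = 0.108). In root it fell by 0.87 (edgeR adjusted p = 0.00629), a call lost without replicate 2 of the severe root libraries (-0.79, adjusted p = 0.0529).

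The ABA breakdown list held 5 genes of ABA 8'-hydroxylases. Of these, 3 were tested in leaf and all 3 were called higher under severe drought (median 2.06 against 0.03 over all genes), beside 27.6% of all genes. In root 5 were tested, with 3 called higher and 1 lower (median 6.42 against -0.04), beside 19.5% and 25.6% of all genes. The root median is the fitted value of Jcr4S05715.10, which had 7 and 3 reads in the control libraries. Jcr4S05715.10 rose from 9.16 ± 1.23 to 23.6 ± 3.09 CPM in leaf (log2 1.36, edgeR adjusted p = 0.00017) and from 0.098 ± 0.0438 to 8.80 ± 2.22 CPM in root (edgeR adjusted p = 0.000116). Jcr4S01858.60 had 1 read in the leaf day 49/52 controls and 13 and 36 reads in the severe leaf libraries, and 3 reads in the root controls against 261 and 791 under severe drought. The fit called it in both organs (edgeR adjusted p = 0.00136 in leaf and 0.000818 in root).

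**Figure D4:**
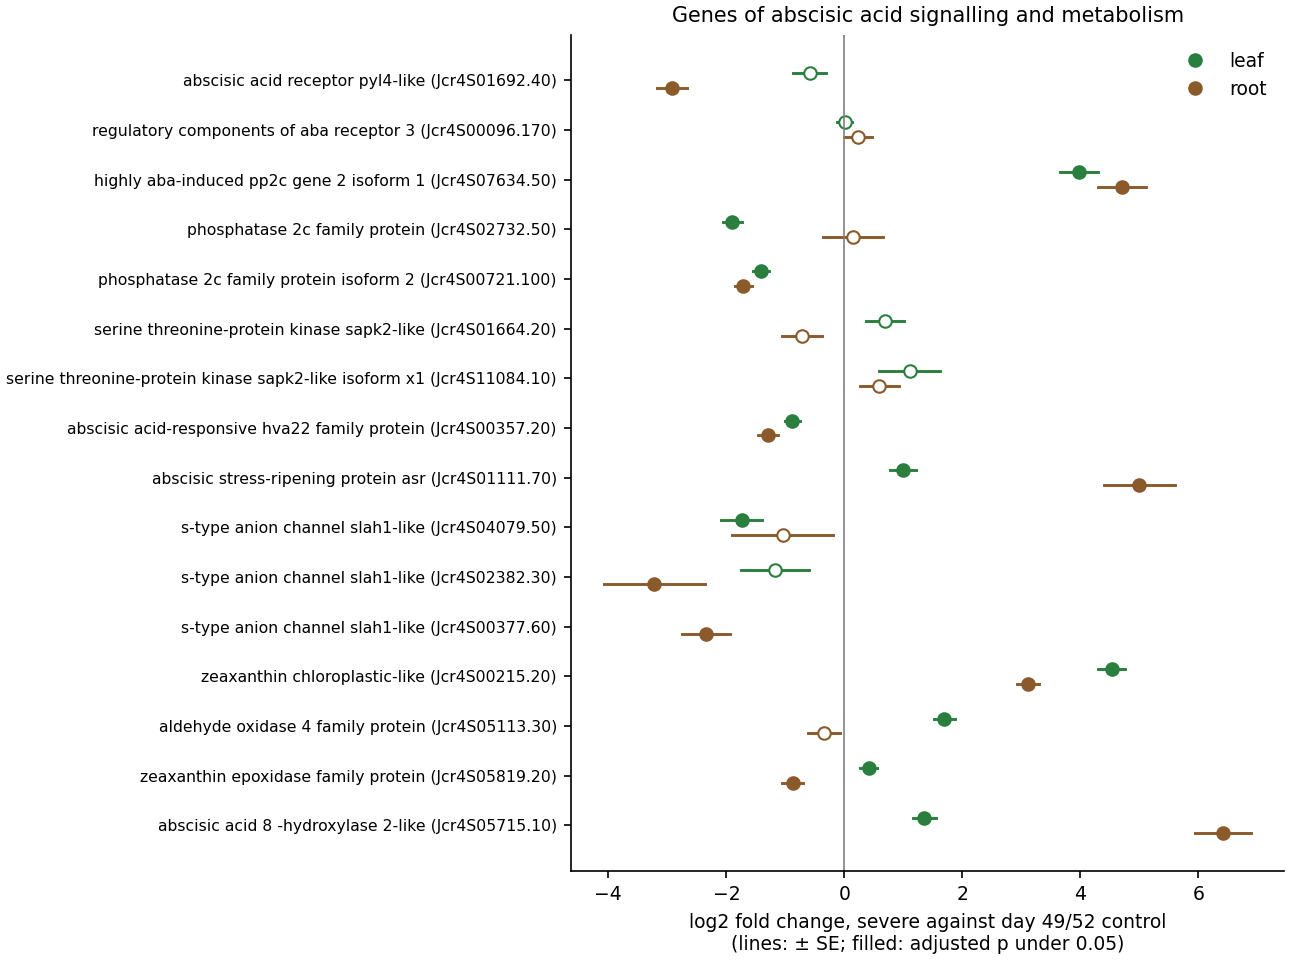
Log2 fold changes under severe drought against the day 49/52 control for the named genes of ABA signalling and metabolism, leaf in green and root in brown, with SE as lines and filled points for calls. Besides the pair, genes outside the receptor, kinase and transcription factor lists were picked by the smallest p in these same comparisons. They do not stand for their whole lists. Of the named genes tested, ABI3 (Jcr4S00529.110) and Jcr4S01858.60, which had few reads in a group compared, are not drawn. The receptor gene fell in root (-2.92), whereas the phosphatase gene rose in both organs (3.97 and 4.71).

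The genes most like each of the pair over the 22 libraries were found by Pearson's r of log2 CPM among 25938 other genes. The r values describe points that share organ and treatment, and they carry no test. Nearest to the receptor gene was Jcr4S11726.20, a putative glutathione transferase gene (r = 0.959), followed by Jcr4S00137.160, of the polyketide cyclase and lipid transport superfamily (r = 0.937). Next came Jcr4S07085.10, a plastid pyruvate kinase gene (r = 0.922), Jcr4S00524.80, a UDP-glucosyl transferase family gene (r = 0.917), and Jcr4S00034.20, a lysine and histidine transporter gene (r = 0.917). Over the 11 group means Jcr4S11726.20 was again the nearest (r = 0.968), and by Spearman's rho too (0.944), whereas Jcr4S00034.20 was in place 83 by Spearman's rho.

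Jcr4S11726.20 had 100 ± 7.59 CPM in the day 13 root control, 59.8 ± 6.73 CPM under moderate and 28.6 ± 0.745 CPM under severe drought, and 96.7 ± 0.266 CPM after rewatering. Its root means had the order of the receptor gene with a smaller range. In the day 49/52 root control it had 59.9 ± 2.90 CPM and overlapped with moderate drought, groups that the receptor gene separated. Jcr4S00137.160 had a wider range, with 94.5 ± 30.8 CPM in the day 13 root control, 4.47 ± 1.06 CPM under moderate drought, 0.831 ± 0.406 CPM under severe drought and 94.6 ± 15.5 CPM after rewatering. In leaf its highest library was at 2.15 CPM.

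Nearest to the phosphatase gene were Jcr4S00022.240, named common plant regulatory factor, and Jcr4S00670.40, named protein phosphatase (r = 0.958 each). They were followed by Jcr4S00100.190, a hypothetical protein gene (r = 0.952), Jcr4S02546.10, a homeobox leucine zipper gene (r = 0.951), and Jcr4S08363.20, a late seed maturation protein gene (r = 0.946). By Spearman's rho Jcr4S00670.40 was the nearest (0.933), and Jcr4S00022.240 was in place 60.

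Jcr4S00670.40 had 4.06 ± 0.951 CPM in the day 49/52 leaf control, 146 ± 3.97 CPM in severely droughted leaf and 1.91 ± 0.145 CPM in rewatered leaf. In root it had 2.85 ± 0.517, 184 ± 26.6 and 0.991 ± 0.436 CPM in these conditions. Jcr4S00100.190 was at 595 ± 139 CPM in leaf and 576 ± 174 CPM in root under severe drought, from 6.33 ± 0.452 and 5.14 ± 0.699 CPM in the controls. Jcr4S02546.10 had 1.21 CPM in its highest library, so its r rests on low counts.

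**Figure D5:**
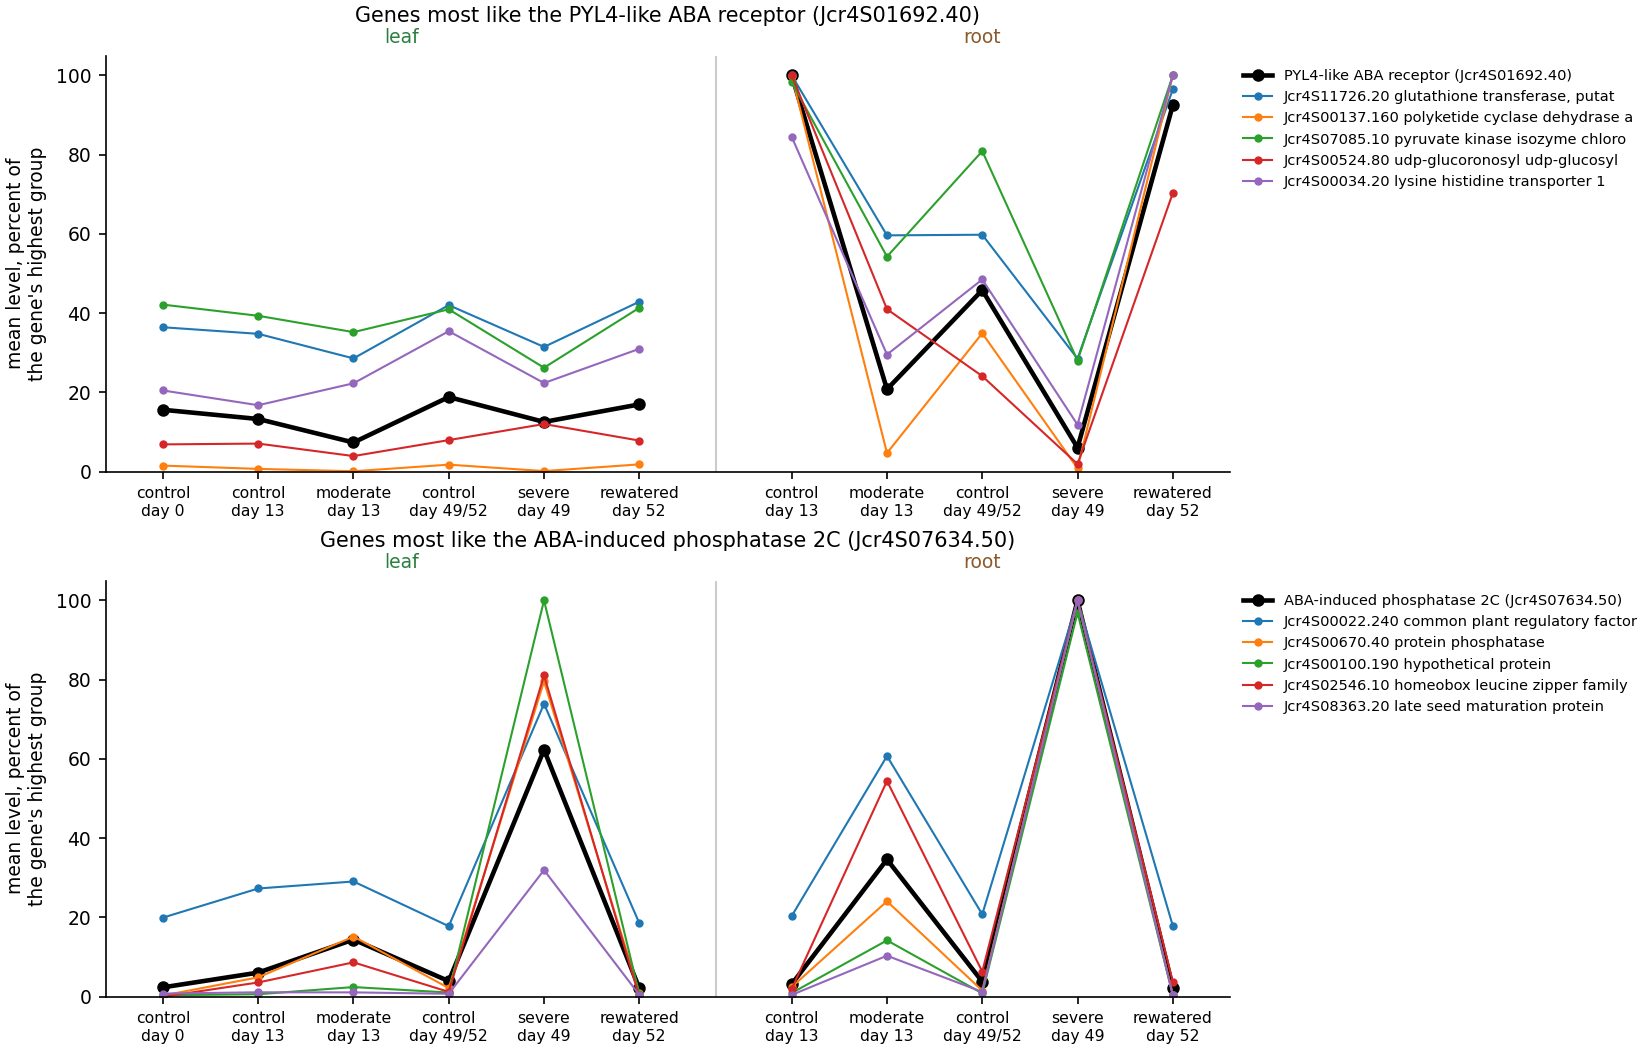
Mean level of each gene in each group, as a percent of its own highest group, for the receptor gene with its 5 most alike genes (upper panel) and the phosphatase gene with its 5 (lower panel). The genes near the receptor share the root high points of day 13 control and rewatering, and those near the phosphatase share the peaks of severe drought in leaf and root. They were chosen by likeness over these same libraries, so the shared high points follow from the choice.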

How the data were processed

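The authors deposited unnormalized read counts, whole numbers for each gene model, and a table of RPKM values whose lowest value is 1 and whose sorted columns differ by at most 0.7. Per the labels, the library kit, started from 400 ng of total RNA, keeps no strand information, and reads came from an Illumina HiSeq. The aligner, counter, genome build and annotation are not named in the labels, and no sequence or position of these gene models was used.

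Tests of the counts used edgeR 4.0.16 under R 4.3.3: filterByExpr, TMM scaling and robust quasi-likelihood F tests (two-sided) of group means, with 1 fit for the 12 leaf libraries (23200 genes), 1 for the 10 root libraries (24924 genes) and 1 for all 22 (25939 genes). Benjamini-Hochberg adjustment ran over all genes of a fit at a threshold of 0.05. SE and 95% intervals came from the F statistic. Alternatives used DESeq2 1.42.0, and limma 3.58.1 on log2 of RPKM plus 1 or plus 0.1, a scale that understates the changes of low genes. The pipeline was tested on simulated data. Likeness used log2 CPM with a prior count of 2.

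The pair of genes and the gene lists were chosen with earlier results of these data known. Named by rule were the pair, the 5 genes most like each, all receptor, SnRK2 and bZIP/B3 genes, and of each other list the 2 genes with the smallest p under severe drought in each organ. Library totals (at least 37104762 reads) left counting error below the spread between libraries (chi-square over its degrees of freedom 11.3 to 145).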

Additional observations from a re-analysis of the deposited data

Results flagged for a closer look

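For the receptor gene Jcr4S01692.40 the effect of severe drought differed between the organs: the log2 change was -0.59 in leaf and -2.92 in root, and leaf minus root was 2.31 (SE 0.39, edgeR adjusted p = 0.000365). The change on rewatering of severely droughted plants differed too, at 0.45 in leaf and 3.91 in root, with leaf minus root of -3.42 (SE 0.40, edgeR adjusted p = 1.13e-05). Both rest on the same severe libraries, and the root severe libraries also had the lowest levels of the Casparian strip protein genes, 0.0476 to 0.476 CPM, whose part in this difference was not tested.

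For the phosphatase gene Jcr4S07634.50 the effect of severe drought in leaf exceeded that of moderate drought by 2.70 on the log2 scale (SE 0.41, edgeR adjusted p = 0.000733). Replicate 2 of the day 13 leaf control, part of the moderate effect, had 61.0 CPM against 29.9 CPM in replicate 1, and without either library the difference stayed called.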

How the results depend on the processing

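For the pair of genes 752 alternative values were computed: 668 kept the direction and side of the threshold, 31 lost a call, 39 gained one and 14 reversed. In those named here the cause was not tested. All values are log2 differences, with leaf minus root for organs. For the receptor gene the difference of moderate effects between organs was called with DESeq2 (1.48), without a filter on low counts (1.41) and with RPKM plus 0.1 or plus 1, filtered or not (1.32). Without the filter leaf moderate (-0.81) and leaf severe drought (-0.61) were called too. With the day 13 control, leaf rewatered (0.39) and root rewatered (-0.13) reversed. Severe minus moderate, from which that control cancels, was called in leaf (0.76) and root (-1.74). Root severe minus moderate was also called with total library size (-0.93). Root moderate drought was lost with only the groups compared (-2.31).

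For the phosphatase gene DESeq2 gave leaf minus root in the day 49/52 control as -0.052 (reversed, as with its size factors, -0.052, and total library size, -0.041) and called leaf moderate (1.25), leaf rewatered against control (-0.85), the moderate organ difference (-2.15) and root severe minus moderate (1.32). The day 13 organ difference was lost with DESeq2's size factors (0.84), only the groups compared (0.87), RPKM plus 0.1 (0.76) and RPKM plus 1, filtered or not (0.73). With the day 13 control leaf rewatered (-1.47), root severe minus moderate (1.57, where that control cancels) and the severe organ difference (-1.63) were called. RPKM plus 0.1 and plus 1 changed the rewatered organ difference (0.057 and 0.052, also 0.052 unfiltered), day 13 against day 0 (1.16 and 1.10), the moderate organ difference (-1.84 and -1.79) and root severe minus moderate (1.37 and 1.38). No filter changed the calls of leaf minus root under severe drought (-0.68), the later leaf control against day 13 (-0.59), leaf moderate (1.29), leaf rewatered (-0.84), the moderate organ difference (-2.20), root rewatered (-0.70) and root severe minus moderate (1.30). Only the groups compared changed those of leaf minus root under moderate (-1.28) and severe drought (-0.65), day 13 against day 0 (1.37), root moderate (3.41) and root rewatered (-0.78). A single fit changed day 13 against day 0 (1.36) and root severe minus moderate (1.37). The zeaxanthin epoxidase gene Jcr4S05819.20 reversed in severely droughted leaf with the day 13 control (-0.32).

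Between groups of an organ, deviations of same-numbered libraries had correlations from -0.212 to 0.230 in leaf and -0.217 to 0.198 in root. Pairing of leaf with root libraries of a condition was not examined, and the tests between organs treat them as independent. A replicate block changed 1 call of the pair, the phosphatase gene at day 13 against day 0 (1.35, adjusted p = 0.074).

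Leaving out 1 library gave, for the receptor gene, -0.75 to 0.13 for leaf day 13 against day 0, -0.29 to 0.59 for leaf severe minus moderate, 1.12 to 1.97 for the moderate organ difference, 0.84 to 1.18 for leaf minus root under severe drought, -1.41 to -0.79 between root controls, -2.59 to -1.98 for root moderate and 0.87 to 1.08 for root rewatered against control. For the phosphatase gene it gave 0.31 to 1.35 for leaf minus root in the day 13 control, -1.66 to -0.59 under moderate drought and -0.071 to 0.18 in the day 49/52 control, 0.75 to 1.77 for day 13 against day 0, -1.02 to 0.00074 for the later leaf control, 0.86 to 1.87 for leaf moderate, -0.022 to 0.62 between root controls, 2.79 to 3.86 for root moderate, 0.85 to 1.91 for root severe minus moderate and -2.59 to -1.52 for the moderate organ difference.

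Counts over all genes moved by over 1.5 times. Higher calls ranged from 0 to 333 in leaf moderate (1 as reported), 4244 to 7083 in leaf severe (6407), 0 to 2649 in root moderate (494), 2275 to 7266 in root severe (4855) 0 to 3862 in root rewatered against control (2125), 2 to 1385 in leaf day 13 against day 0 (305), 2237 to 5081 in leaf and 1161 to 5441 in root severe minus moderate (3522 and 2918), 941 to 4637 between root controls (3877) and 2 to 680 in the moderate organ difference (66). Lower calls ranged from 0 to 356 (0), 0 to 2108 (188), 3949 to 7455 (6393) and 0 to 3231 (2103) in leaf moderate, root moderate, root severe and root rewatered against control. They ranged from 52 to 2915 in leaf rewatered against control (880), 0 to 844 between the day 13 and later leaf controls (61), 654 to 4892 between root controls (3824), 3567 to 7691 in root rewatered against severe (5485), 2954 to 6799 in root severe minus moderate (4623) and 6 to 1499 in the moderate organ difference (161). Total library size moved the all-gene median by -0.17 in root severe drought and its calls from 4855 higher and 6393 lower to 3499 and 7455. It moved those between root controls from 3877 and 3824 to 4627 and 2877, root rewatered against control from 2125 and 2103 to 1542 and 2499, root severe minus moderate from 2918 and 4623 to 1763 and 5786, and the severe organ difference from 4440 and 4829 to 5646 and 3517.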
